A study of Homo sapiens with 8 samples.

Results

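The genes described here are 46 genes of DNA replication and of the E2F pathway that drives it, among 15852 genes listed in the series. They were taken by name: the transcription factors E2F1, E2F2, E2F7 and E2F8 with cyclin E, the factors that license origins and load and start the replicative helicase, the polymerases with their clamp and fork enzymes, and genes for nucleotide supply, histone and chromatin supply and S-phase repair. All 46 were found in the count table by their symbol, all 46 had enough counts to be tested, and each exceeded 3 counts in every library. Of the 15852 genes, 11841 were tested.

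RNA selected for poly(A) tails was sequenced from KYSE150, an established line of human esophageal squamous cell carcinoma, in 4 libraries with the genotype ShBOLA3-L (called knockdown here) and 4 libraries with the genotype Control. The labels give both groups no treatment. They do not name the hairpin, its target sequence, what the controls carry or whether clones or pools were used. Nor do they tell if libraries with the same genotype came from separate cultures, so the p-values measure the spread between these libraries, which may be technical. The question of the comparison is what loss of the BOLA3-L isoform does to gene expression. BOLA3 is a mitochondrial factor that helps pass iron-sulfur clusters to client enzymes. The study as a whole concerns the inclusion of BOLA3 exon 3.

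DNA replication begins in G1 phase, when the origin recognition complex, CDC6 and CDT1 load the ring of MCM subunits that will unwind DNA. At the start of S phase, CDC45 and the GINS complex join the ring and turn it into an active helicase, and polymerases then copy the strands on a sliding clamp placed by a clamp loader. Most of these genes are transcribed under E2F factors: E2F1 and E2F2 activate them, E2F7 and E2F8 repress them, and cyclin E with its kinase keeps the retinoblastoma brake off.

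The start regions of 9 of the genes are shown because they carry the sequence words that E2F factors are known to bind and because the genes that hold them moved in both directions or not at all. Sequences are from RefSeq on GRCh38.p14, run 5' to 3' on the strand of the gene from 60 bases before the start to 20 from it, and have the words in capitals. The words searched were TTTCCCGC, TTTGGCGC, TTTCGCGC and TTTGCCGC, on both strands. The first 4 genes rose in the knockdown, the next 4 fell, and MCM2 was not called.
E2F1 (chr20:33686366-33686445, minus strand): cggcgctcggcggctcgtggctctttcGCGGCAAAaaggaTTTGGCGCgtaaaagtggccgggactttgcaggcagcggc
E2F2 (chr1:23531214-23531293, minus strand): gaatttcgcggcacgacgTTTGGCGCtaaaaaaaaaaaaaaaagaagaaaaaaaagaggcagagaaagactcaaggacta
GINS1 (chr20:25407613-25407692, plus strand): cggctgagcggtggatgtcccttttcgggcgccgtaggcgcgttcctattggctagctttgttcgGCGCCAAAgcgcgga
EXO1 (chr1:241848144-241848223, plus strand): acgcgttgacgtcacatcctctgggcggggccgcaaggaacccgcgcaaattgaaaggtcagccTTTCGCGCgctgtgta
GINS2 (chr16:85688935-85689014, minus strand): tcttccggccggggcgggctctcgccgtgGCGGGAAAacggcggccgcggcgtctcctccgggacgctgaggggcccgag
MCM3 (chr6:52284723-52284802, minus strand): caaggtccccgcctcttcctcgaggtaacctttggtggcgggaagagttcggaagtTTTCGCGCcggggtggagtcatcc
MCM7 (chr7:100101378-100101457, minus strand): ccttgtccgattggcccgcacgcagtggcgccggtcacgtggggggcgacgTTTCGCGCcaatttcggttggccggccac
TYMS (chr18:657593-657672, plus strand): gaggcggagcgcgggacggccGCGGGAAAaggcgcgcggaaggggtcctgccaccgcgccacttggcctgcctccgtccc
MCM2 (chr3:127598351-127598430, plus strand): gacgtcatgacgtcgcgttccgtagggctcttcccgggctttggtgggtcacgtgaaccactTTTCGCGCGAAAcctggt

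Such a word stood in 22 of the 41 members that had a 300-base window, from 250 bases before the start to 50 from it (53.7%), against 615 of 12548 windows of listed genes (4.9%) and 536 of 9615 windows of tested genes (5.57%). They stood in 4 of 6 windows of genes that rose, in 5 of 8 of genes that fell and in 13 of 27 of genes that were not called. MCM6, which was not called, held 4 words, and RRM1, RRM2, CDC45, RFC5 and BRCA1, which were called, held none in this window. Start sites of a gene outside its window were not searched. Neighbouring words can overlap, as in MCM2, where a word and its reverse complement share bases. The word CCAAT, bound by the factor NF-Y and common in cell cycle promoters, stood in 23 of 41 member windows (56.1%) and in 4570 of 12548 windows of listed genes (36.4%). In MCM7 it shares its first base with the end of an E2F word. A match is a stretch of letters and not a measured binding site.

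The libraries held 31178036 to 35147860 counts, at which 3 counts correspond to 0.0851 to 0.0969 CPM, a gene's count relative to the total of its library after scaling with edgeR's TMM factors. BOLA3 stood at 6.06, 6.64, 6.33 and 7.29 CPM in knockdown libraries and at 21.6, 19.1, 20.5 and 21.8 CPM in controls, a log2 change of -1.66 (SE 0.0821, adjusted p 6.89e-11 by edgeR's quasi-likelihood test). The knockdown level was 31.7% of the control level over all isoforms, since the counts are per gene, and the exact two-sided permutation p over 70 assignments was 0.0286, the smallest possible. Knockdown replicate 1 stood apart from the other knockdown libraries: on the second principal component, with 14.4% of the variance, it lay at 20.1 and the others between -10.1 and -4.81. Squamous markers were present, led by KRT5, a basal keratin, at 1936 ± 126 CPM in knockdown libraries and 3132 ± 11.2 CPM in controls (SD, n = 4 each). KRT5, KRT14, KRT6A and TP63 all fell, with log2 changes from -0.491 to -1.549, while the epithelial marker EPCAM rose (0.206). Summed fibroblast markers lay at 4.53 to 7.26 CPM in knockdown libraries and at 9.94 to 14.8 CPM in controls over 7 genes, most of it COL1A1. Summed leukocyte markers lay at 0.029 to 0.118 CPM in knockdown libraries and at 0.0969 to 0.334 CPM in controls over 4 genes, and endothelial markers at 1.71 to 2.29 CPM in knockdown libraries and 0.819 to 1.64 CPM in controls over 3 genes. Of the defining markers, COL1A2, PTPRC and LYZ were at 0 in all 4 knockdown libraries and CD3E and PECAM1 were at 0 in all 4 controls, which allows up to 0.0969 CPM. The part of these marker differences in the changes described here was not tested.

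Of the 46 genes, 7 rose and 10 fell in the knockdown at an adjusted p under 0.05, and 29 were not called. Among all tested genes 15.0% rose and 15.6% fell, so that 30.7% were called, beside 37.0% of the 46. The changes were small: they ran from -0.34 for RRM2 to 0.47 for CCNE2 on the log2 scale, and the median absolute change was 0.076 for the 46 genes, beside 0.113 for all tested genes. Levels in the knockdown and control libraries did not overlap for 18 of the 46, beside 30.2% of all tested genes. The median log2 change was -0.031 over the 46 and 0.001 over all tested genes, and 31 of the 46 values were negative. In RNA from a bulk culture, a smaller number of cells in S phase and less of these transcripts per cell cannot be told apart.

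The calls did not follow the steps of replication as blocks. E2F and cyclin E genes had the highest median change, at 0.134, with 3 of 6 genes higher and 1 lower, and nucleotide supply had the lowest, at -0.142, with 1 of 4 genes higher and 2 lower. Origin licensing had 3 of 10 genes lower, helicase activation 1 of 6 higher and 2 lower, polymerases with clamp and fork enzymes 2 of 11 lower, chromatin and histone supply none of 4, and S-phase checkpoint and repair 2 of 5 higher. Ribonucleotide reductase and GINS each held 1 subunit that rose and 1 that fell.

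**Figure D1:**
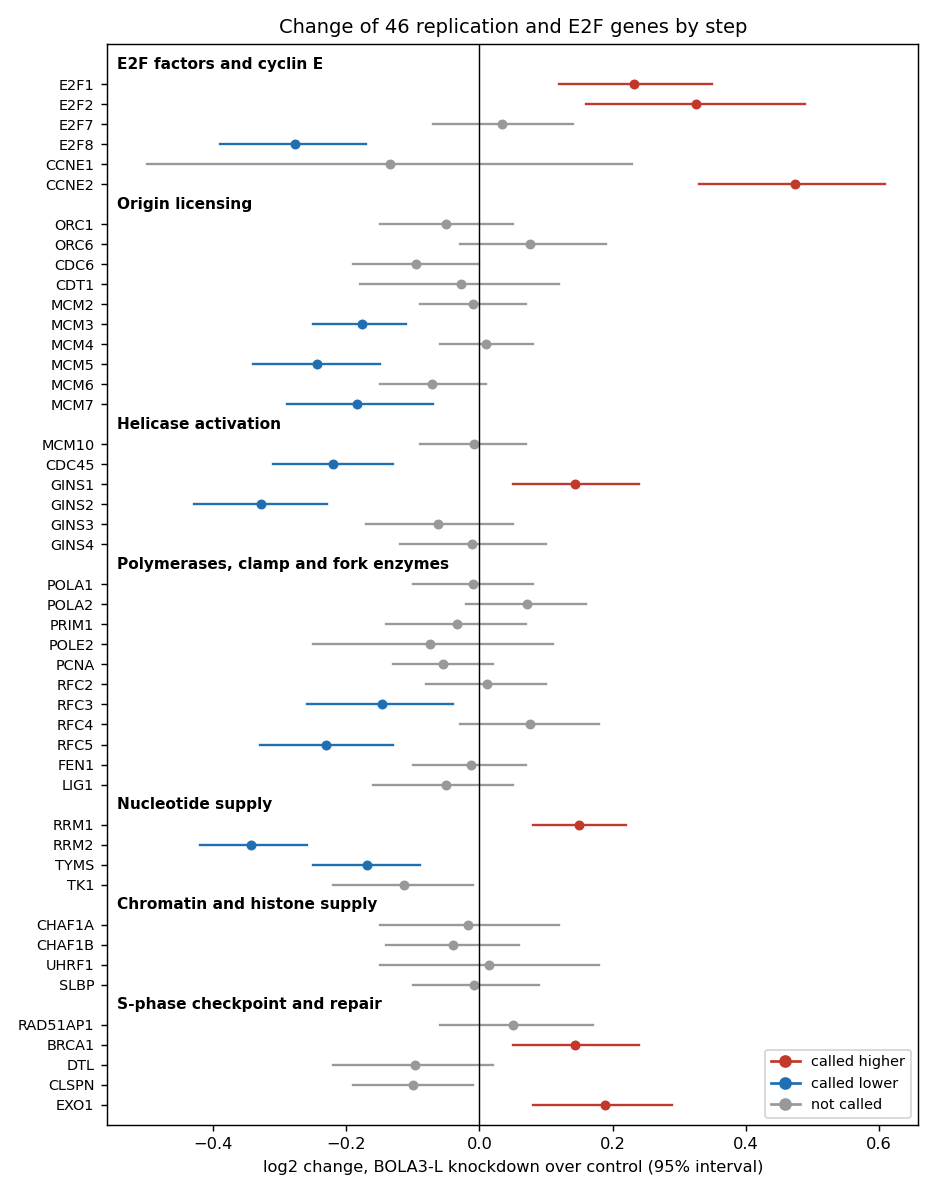
Log2 change of each of the 46 genes, knockdown over control, with its 95% interval from the edgeR fit, grouped by step of replication; red marks genes called higher, blue genes called lower and grey genes not called. The 7 red points reach 0.47 for CCNE2 and the 10 blue points reach -0.34 for RRM2, and red and blue points occur together within the E2F, helicase and nucleotide groups.

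The activating E2F genes and cyclin E2 were higher in the knockdown and the repressor E2F8 was lower. E2F1, the activator best known from the retinoblastoma pathway (chr20:33675477-33686385, minus strand, GRCh38.p14), had 54.5, 60.7, 62.8 and 63.9 CPM in knockdown libraries and 51.8, 48.7, 52.3 and 52.9 CPM in controls. All knockdown libraries lay above all controls, with knockdown replicate 1 closest to them. The log2 change was 0.23 (SE 0.0535, adjusted p 0.00277 by edgeR). E2F2 (chr1:23505212-23531233, minus strand), another activator, had 18.3, 22.2, 20.4 and 24.2 CPM in knockdown libraries and 16.4, 16.2, 18.2 and 17.0 CPM in controls. The groups only just separated, because the lowest knockdown library, replicate 1, lay next to the highest control. Its log2 change was 0.33 (SE 0.0797, adjusted p 0.00445 by edgeR).

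CCNE2, or cyclin E2, a partner of CDK2 at the entry to S phase, had the largest rise of the 46. It stood at 24.1, 22.9, 21.1 and 21.3 CPM in knockdown libraries and at 15.8, 16.5, 16.9 and 15.3 CPM in controls. The groups lay well apart and the log2 change was 0.47 (SE 0.0667, adjusted p 3.20e-05 by edgeR). Of its exonic bases, 37.1% are also covered by exons of genes on the opposite strand, chiefly INTS8, and whether the authors' counting used strand is not given in the sources used here. INTS8, a subunit of the Integrator complex, stood at 41.5 ± 2.04 CPM in knockdown libraries and 44.2 ± 2.33 CPM in controls (SD, n = 4 each) and was not called (log2 change -0.089, adjusted p 0.234 by edgeR). CCNE1, the other cyclin E, was the lowest of the 46 genes, at 1.71, 2.33, 2.73 and 1.85 CPM in knockdown libraries and 2.29, 2.27, 2.52 and 2.40 CPM in controls. The knockdown libraries spread to both sides of the controls, and the change of -0.135 had a 95% interval of -0.50 to 0.23, the widest of the 46.

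E2F8 (chr11:19224063-19241655, minus strand), an atypical E2F that represses S-phase genes, had 37.0, 38.8, 36.0 and 35.5 CPM in knockdown libraries and 47.1, 44.6, 45.5 and 41.6 CPM in controls. No knockdown library reached the lowest control, and the log2 change was -0.28 (SE 0.0539, adjusted p 7.06e-04 by edgeR). E2F7, its close relative, had 112.1, 93.7, 102.3 and 99.99 CPM in knockdown libraries and 103.0, 97.9, 98.5 and 99.1 CPM in controls. These ranges overlapped in full, and the change of 0.034 had an interval of -0.07 to 0.14. Among the 6 genes of this group, the direction of the calls thus differed between activators and E2F8, while E2F7 and CCNE1 passed in neither direction.

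**Figure D2:**
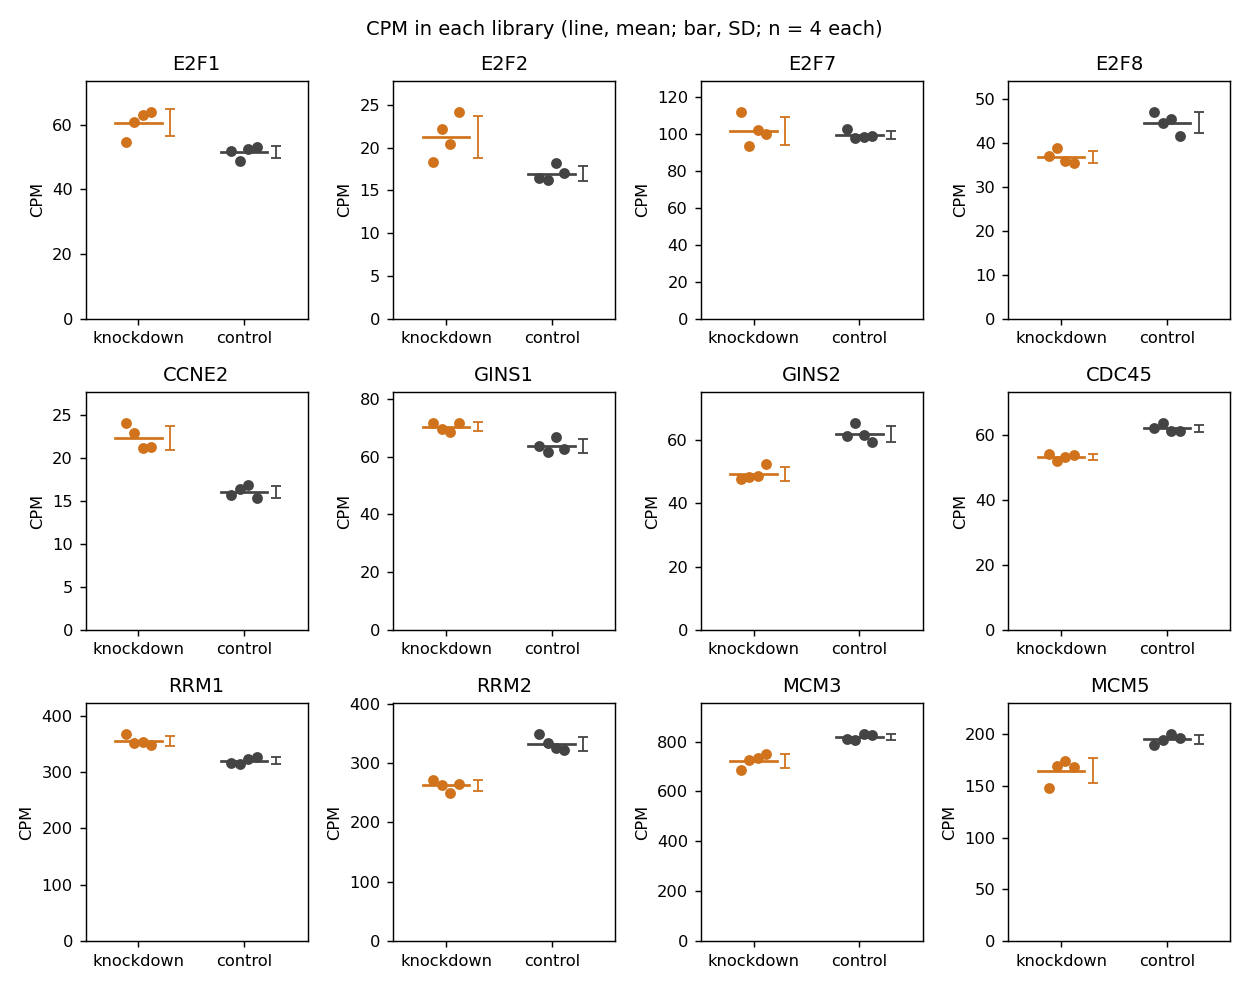
CPM of 12 of the genes in each of the 4 knockdown libraries (orange, left) and 4 control libraries (grey, right), with the mean as a line and the SD as a bar; each axis starts at 0. E2F7 overlaps between the groups, and the other 11 genes do not, with GINS1, RRM1, E2F1, E2F2 and CCNE2 higher and E2F8, GINS2, CDC45, RRM2, MCM3 and MCM5 lower in the knockdown.

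Origin licensing showed changes in 3 of the 6 genes of the MCM ring. MCM3, MCM5 and MCM7 fell, MCM2, MCM4 and MCM6 were not called, and of the loaders ORC1, ORC6, CDC6 and CDT1 none was called. MCM3 (chr6:52264015-52284742, minus strand) had 683.9, 727.1, 735.2 and 748.4 CPM in knockdown libraries and 811.5, 807.4, 829.2 and 825.6 CPM in controls. All knockdown libraries were below all controls, and the log2 change was -0.18 (SE 0.0331, adjusted p 5.12e-04 by edgeR). MCM5 (chr22:35400140-35455031, plus strand) had 147.58, 169.15, 174.26 and 168.69 CPM in knockdown libraries and 189.84, 194.78, 200.04 and 196.74 CPM in controls. Knockdown replicate 1 was the lowest, and the log2 change of -0.24 (SE 0.0458, adjusted p 5.35e-04 by edgeR) was -0.19 without it.

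MCM7 (chr7:100092728-100101397, minus strand) had 342.0, 418.0, 400.2 and 428.3 CPM in knockdown libraries and 452.4, 444.5, 452.6 and 455.3 CPM in controls. The knockdown libraries were all lower but spread far more than the controls, again with replicate 1 lowest. Its log2 change was -0.18 (SE 0.0519, adjusted p 0.0123 by edgeR), it was -0.117 without that library (adjusted p 2.41e-04), and it missed the threshold in limma on log2(FPKM + 1) with no minimum (adjusted p 0.105). MCM2 had 249.7, 278.0, 277.5 and 277.4 CPM in knockdown libraries and 266.7, 271.7, 273.8 and 278.0 CPM in controls, with a change of -0.01 (95% interval -0.09 to 0.07). Exons of TPRA1 and AC023593.1 on the opposite strand cover 23.6% of the exonic bases of MCM2, so its counts, and the ratio to it given further on, are uncertain in the way described for CCNE2. MCM4 was as flat, at 491.9 ± 13.2 CPM in knockdown libraries and 488.5 ± 7.74 CPM in controls (95% interval -0.06 to 0.08), and MCM6 stood at 184.1 ± 7.16 CPM in knockdown libraries and 193.4 ± 1.72 CPM in controls (SD, n = 4 each; 95% interval -0.15 to 0.01). Within the ring, the changes thus ran from -0.24 for MCM5 to 0.01 for MCM4.

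Summed over MCM2 to MCM7, the level per length was 642.3 ± 21.4 FPKM in knockdown libraries and 689.3 ± 5.36 FPKM in controls (SD, n = 4 each), where FPKM are the authors' counts scaled to the length of the gene and the total of the library. The groups did not overlap, and the knockdown sum was 93.2% of the control sum. Among the loaders, the changes ran from -0.095 for CDC6 to 0.076 for ORC6. CDC6, which brings the helicase to the origin, had 89.8, 86.3, 81.5 and 81.0 CPM in knockdown libraries and 90.6, 90.1, 93.4 and 87.6 CPM in controls. Only replicate 1 of the knockdown entered the control range, and without it the gene was called lower (log2 change -0.123, adjusted p 0.00521 by edgeR). MCM6 was also called lower without that library (-0.09, adjusted p 0.010). No licensing gene was called higher by edgeR, DESeq2 or limma on log2(FPKM + 1), and none had a rise with an unadjusted p under 0.05 (0 of 10).

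Among the genes that turn the ring into a running helicase, CDC45 and GINS2 fell, GINS1 rose, and GINS3, GINS4 and MCM10 were not called. CDC45 (chr22:19479466-19520612, plus strand) had 54.3, 52.0, 53.2 and 53.8 CPM in knockdown libraries and 62.2, 63.8, 61.3 and 61.2 CPM in controls. Both groups were tight and apart, with a log2 change of -0.22 (SE 0.0435, adjusted p 8.55e-04 by edgeR). GINS2 (chr16:85676198-85688954, minus strand) had 47.7, 48.5, 48.7 and 52.4 CPM in knockdown libraries and 61.3, 65.4, 61.5 and 59.5 CPM in controls. Its fall of 0.33 on the log2 scale (SE 0.0488, adjusted p 5.68e-05 by edgeR) came next to that of RRM2 in size.

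GINS1 (chr20:25407673-25448563, plus strand), which sits in the same complex as GINS2, had 71.7, 69.7, 68.7 and 71.6 CPM in knockdown libraries and 63.6, 61.5, 67.0 and 62.9 CPM in controls. The lowest knockdown library was just above the highest control, the log2 change was 0.14 (SE 0.0441, adjusted p 0.0185 by edgeR), and the call was lost without control replicate 2 (adjusted p 0.0638) or control replicate 4 (adjusted p 0.0544). GINS3 and GINS4 differed by -0.062 (95% interval -0.17 to 0.05) and -0.012 (-0.12 to 0.10). Exons of genes on the opposite strand cover 23.6% of the exonic bases of GINS4, so its count is uncertain in the way described for CCNE2. MCM10, which helps start the helicase, differed by -0.008 (-0.09 to 0.07).

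Among the 11 polymerase, clamp and fork genes, 2 clamp loader subunits fell and the other 9 genes were not called. RFC5 (chr12:118016703-118041448, plus strand), a subunit of the loader that opens the PCNA clamp, had 57.9, 59.1, 56.6 and 57.3 CPM in knockdown libraries and 70.7, 64.3, 66.2 and 69.8 CPM in controls. The groups did not overlap and the log2 change was -0.23 (SE 0.0457, adjusted p 8.73e-04 by edgeR). RFC3 (chr13:33818149-33977377, plus strand), from the same loader, had 148.8, 124.5, 126.3 and 122.2 CPM in knockdown libraries and 144.6, 145.1, 139.6 and 148.1 CPM in controls. Knockdown replicate 1 lay above all controls and the other 3 knockdown libraries lay below them. The log2 change was -0.146 (SE 0.0524, adjusted p 0.0413 by edgeR) and -0.21 without replicate 1 (adjusted p 2.02e-07), while leaving out any of the other 7 libraries lost the call, with adjusted p up to 0.129. The RFC3 call was also lost with upper quartile factors (adjusted p 0.0528 by edgeR) and in all 3 limma fits (adjusted p 0.137 on log2(FPKM + 1), 0.136 on log2(FPKM + 0.1) and 0.221 on log2(FPKM + 1) with no minimum), so that by limma RFC5 was the loader subunit that fell.

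RFC2 and RFC4, the remaining members of that loader listed here, were not called, at 0.012 (95% interval -0.08 to 0.10) and 0.076 (-0.03 to 0.18). PCNA, the clamp itself, had 248.3, 238.4, 238.0 and 227.5 CPM in knockdown libraries and 247.4, 243.4, 246.9 and 251.2 CPM in controls. The change of -0.055 was not called over all libraries and was called without knockdown replicate 1 (-0.074, adjusted p 0.0254 by edgeR). POLA1, POLA2 and PRIM1, which make the primers, POLE2 of the leading-strand polymerase, and FEN1 and LIG1, which trim and seal Okazaki fragments, had changes between -0.074 and 0.071. For POLA2, 53.1% of its sequence windows recur in the gene model AP000944.2, which overlaps 35.1% of its exonic bases on the same strand. For PRIM1, 22.6% recur in AC117378.1, so both counts are less certain. No gene of this group was called higher by edgeR, DESeq2 or limma on log2(FPKM + 1), and none had a rise with an unadjusted p under 0.05 (0 of 11).

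Nucleotide supply held the strongest fall of the 46 beside a rise in the same enzyme. RRM2, the small subunit of ribonucleotide reductase and the one that is made in S phase (chr2:10122568-10211010, plus strand), had 272.2, 263.7, 250.2 and 264.2 CPM in knockdown libraries and 348.8, 333.9, 326.3 and 322.7 CPM in controls. The log2 change was -0.34 (SE 0.0371, adjusted p 1.46e-06 by edgeR), with the highest knockdown library well below the lowest control. RRM1, the large subunit (chr11:4094685-4138932, plus strand), had 367.1, 351.7, 353.9 and 347.8 CPM in knockdown libraries and 315.7, 314.6, 323.6 and 327.1 CPM in controls. All knockdown libraries were above all controls, and the log2 change was 0.149 (SE 0.033, adjusted p 0.00212 by edgeR). For RRM2, 20.2% of exonic bases lie in the gene model AC007240.1 on the same strand and 27.8% of its sequence windows recur in that model or the pseudogene RRM2P3, so its count is less certain than that of RRM1.

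TYMS, or thymidylate synthase (chr18:657653-673578, plus strand), had 130.4, 129.1, 125.1 and 124.1 CPM in knockdown libraries and 148.0, 140.3, 141.1 and 142.5 CPM in controls. It fell by 0.169 on the log2 scale (SE 0.0375, adjusted p 0.00218 by edgeR), with no overlap between the groups. On the opposite strand, ENOSF1 and TYMSOS cover 46.6% of its exonic bases, and ENOSF1 also fell (54.6 ± 2.41 CPM in knockdown libraries and 59.6 ± 0.905 CPM in controls, SD, n = 4 each, log2 change -0.126, adjusted p 0.0458 by edgeR, a call kept in only 2 of 8 fits with a library left out), so part of the TYMS count is uncertain. TK1, thymidine kinase of the salvage route, had 74.8, 88.5, 84.5 and 83.9 CPM in knockdown libraries and 89.5, 90.4, 89.0 and 90.0 CPM in controls. Its groups did not overlap either, but the change of -0.114 was not called (adjusted p 0.0815 by edgeR). It was called without knockdown replicate 2 (-0.147, adjusted p 0.0427) and with offsets corrected for GC content (-0.118, adjusted p 0.00678).

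Chromatin and histone supply showed no called change. CHAF1A and CHAF1B, subunits of the assembly factor that lays histones behind the fork, UHRF1, which reads hemimethylated DNA, and SLBP, which binds histone mRNA, had changes between -0.04 and 0.014. None of the 4 was called by edgeR, DESeq2 or limma on log2(FPKM + 1), and none had an unadjusted p under 0.05 (0 genes). UHRF1 had 85.6, 114.8, 116.7 and 110.6 CPM in knockdown libraries and 101.3, 102.0, 109.6 and 111.0 CPM in controls. Replicate 1 was far below the other knockdown libraries, and without it the gene was called higher (0.107, adjusted p 0.0119 by edgeR). With GC-corrected offsets UHRF1 was not called, with or without that library. For UHRF1, 22.4% of its sequence windows recur in the gene model AC112777.1, so its count is less certain.

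In S-phase checkpoint and repair, EXO1 and BRCA1 rose and RAD51AP1, DTL and CLSPN were not called. EXO1 (chr1:241847986-241889939, plus strand), an exonuclease of mismatch repair and end resection, had 75.3, 67.9, 66.7 and 67.6 CPM in knockdown libraries and 64.1, 58.3, 61.5 and 59.7 CPM in controls. The groups did not overlap, and the log2 change was 0.188 (SE 0.0499, adjusted p 0.00783 by edgeR). BRCA1 (chr17:43044295-43170327, minus strand), a ubiquitin ligase of homologous recombination, had 73.1, 74.6, 70.9 and 66.6 CPM in knockdown libraries and 63.7, 63.5, 64.8 and 66.0 CPM in controls. Its groups nearly touched, the log2 change was 0.144 (SE 0.0459, adjusted p 0.0225 by edgeR), and the call was lost without knockdown replicate 2 or without control replicate 1, 2 or 3 (adjusted p up to 0.0862).

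CLSPN, an adaptor that lets ATR activate CHK1, had 75.2, 68.9, 74.8 and 76.4 CPM in knockdown libraries and 77.7, 81.4, 78.5 and 78.7 CPM in controls. These did not overlap, yet the change of -0.10 was not called (adjusted p 0.0991 by edgeR). DTL, the ubiquitin ligase receptor that removes CDT1 in S phase, differed by -0.097 (95% interval -0.22 to 0.02). Without knockdown replicate 1, CLSPN (-0.107, adjusted p 0.0219) and DTL (-0.141, adjusted p 0.00991) were both called lower. No gene of this group was called lower over all libraries by edgeR, DESeq2 or limma on log2(FPKM + 1) (0 of 5), and 1 had a fall with an unadjusted p under 0.05.

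**Figure D3:**
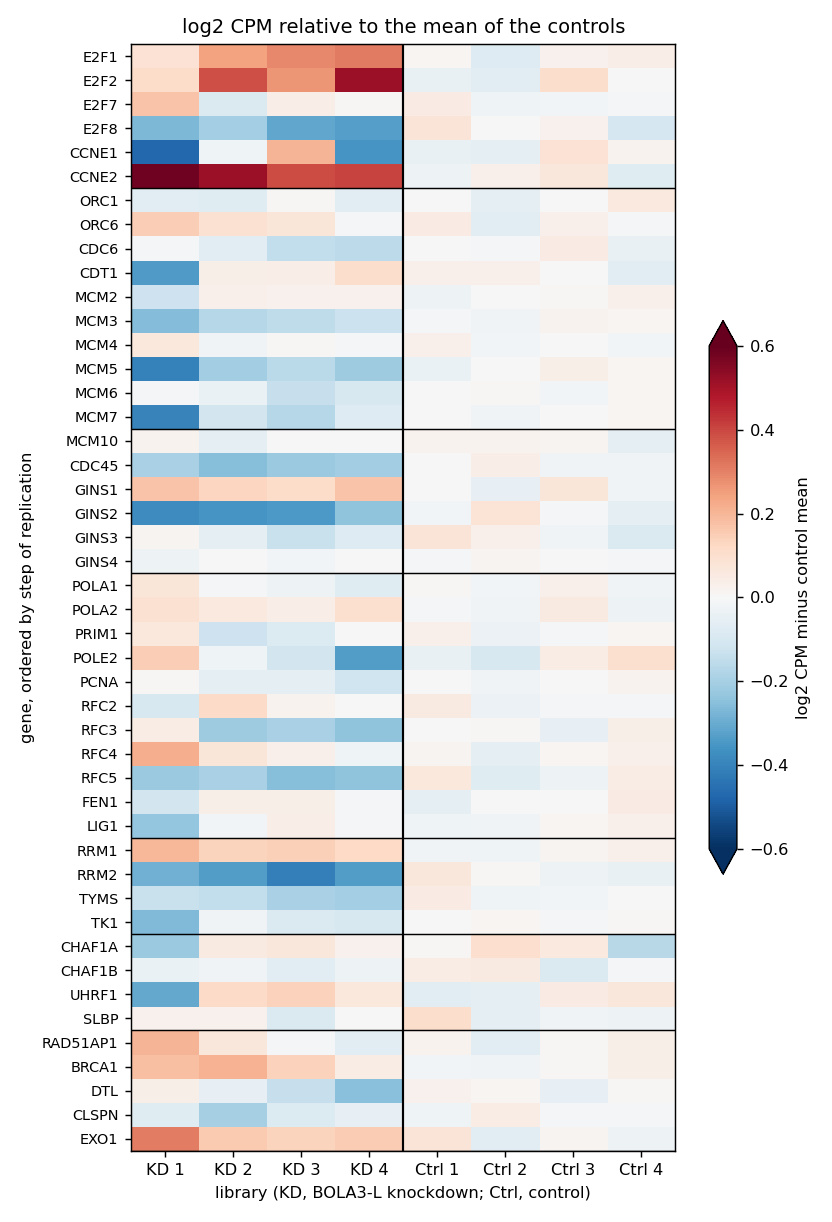
Log2 CPM of the 46 genes (rows, ordered by step of replication, with lines between steps) in 4 knockdown libraries (KD, left) and 4 controls (Ctrl, right), each as the difference from the mean of the controls. CCNE2, E2F2 and E2F1 are red and RRM2, GINS2 and E2F8 blue in all 4 knockdown libraries, while CDT1, CCNE1 and UHRF1 are blue mainly in knockdown replicate 1 or vary among the knockdown libraries.

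Partners within a complex or pathway were then compared within each library, which removes any scaling between libraries. A ratio keeps deviations that differ between genes, such as those of knockdown replicate 1 with GC content described further on. The pairs were chosen after their values were seen, so the ratios are a description with no test. The ratio of RRM2 to RRM1 counts was 0.741, 0.75, 0.707 and 0.76 in knockdown libraries and 1.1, 1.06, 1.01 and 0.987 in controls, so its knockdown mean was 71.1% of the control mean. For GINS2 to GINS1 it was 0.665, 0.695, 0.71 and 0.732 in knockdown libraries and 0.963, 1.06, 0.918 and 0.946 in controls (72.0%). E2F8 to E2F1 gave 0.679, 0.639, 0.573 and 0.557 in knockdown libraries and 0.908, 0.914, 0.87 and 0.786 in controls (70.4%). In all 3 pairs the highest knockdown ratio was below the lowest control ratio. Within the MCM ring the shifts were smaller, to 84.0% for MCM5 over MCM4 (0.336 ± 0.0315 in knockdown libraries, 0.4 ± 0.0133 in controls) and 89.1% for MCM3 over MCM2 (2.68 ± 0.0541 in knockdown libraries, 3.0 ± 0.0376 in controls; SD, n = 4 each). MCM5 over MCM4 was 0.289 in knockdown replicate 1 and 0.347 to 0.355 in the other knockdown libraries.

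**Figure D4:**
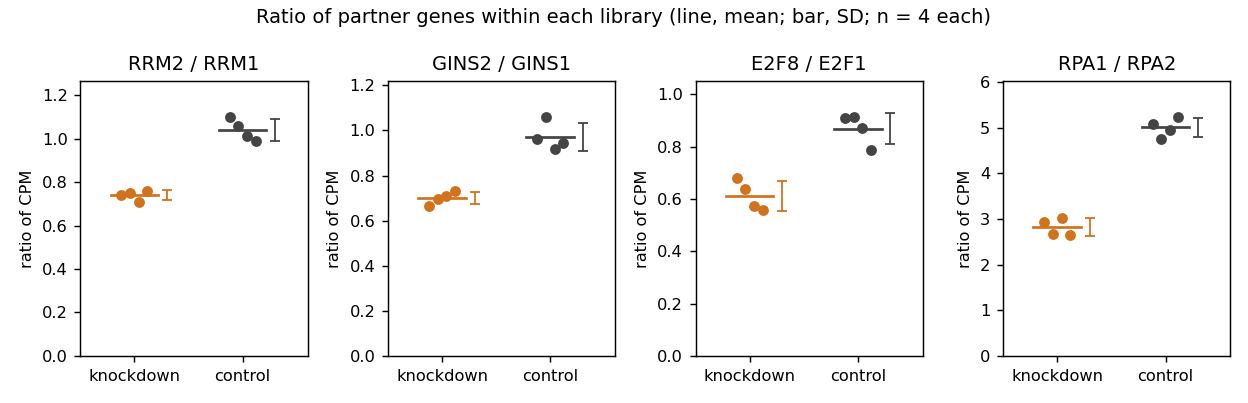
Ratio of the CPM of 2 partner genes within each library, in 4 knockdown libraries (orange, left) and 4 controls (grey, right), with the mean as a line and the SD as a bar. Knockdown ratios lie below all control ratios for RRM2 over RRM1 (0.707 to 0.76 against 0.987 to 1.1), GINS2 over GINS1 (0.665 to 0.732 against 0.918 to 1.06), E2F8 over E2F1 (0.557 to 0.679 against 0.786 to 0.914) and RPA1 over RPA2 (2.65 to 3.03 against 4.75 to 5.24).

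Compared per length, the 46 genes spanned from 217.0 ± 7.78 FPKM in knockdown libraries and 242.0 ± 3.08 FPKM in controls for MCM3 to 1.11 ± 0.239 FPKM in knockdown libraries and 1.21 ± 0.0571 FPKM in controls for CCNE1 (SD, n = 4 each). MCM3, PCNA, MCM7 and MCM4 were the highest in both groups, in that order, and CCNE2, E2F2 and CCNE1 the lowest. GINS2 moved furthest in this order, to rank 29 in the knockdown against rank 23 in controls, followed by CDC45 (25 in the knockdown, 21 in controls) and E2F1 (24 in the knockdown, 28 in controls). The order of the ribonucleotide reductase subunits differed between the groups. RRM1 stood at 105.1, 99.9, 101.0 and 98.9 FPKM in knockdown libraries, above RRM2 at 80.3, 77.2, 73.5 and 77.4 FPKM in the same libraries. In controls RRM1 stood at 88.6, 88.6, 90.9 and 91.9 FPKM and RRM2 at 100.8, 96.8, 94.5 and 93.4 FPKM. RRM2 was thus below RRM1 in every knockdown library and above it in every control, and its rank among the 46 was 8 in the knockdown and 5 in controls. Some neighbours in the order differed by less than their spread, such as POLA1 (8.26 ± 0.377 FPKM) and CLSPN (8.0 ± 0.376 FPKM), both in knockdown libraries (SD, n = 4). The sum over all 46 genes was 1921 ± 13.8 FPKM in knockdown libraries and 1988 ± 14.1 FPKM in controls (SD, n = 4 each), or 96.6% of the control sum.

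The other genes of replication were read from a list of 40, of which 5 rose and 6 fell. Thus 27.5% were called, beside 30.7% of all tested genes. RPA1, the large subunit of the protein that coats single-stranded DNA, changed more than any of the 46 genes: it had 165.6, 156.9, 160.7 and 155.2 CPM in knockdown libraries and 233.7, 220.5, 231.8 and 237.4 CPM in controls. Its log2 change was -0.53 (SE 0.0375, adjusted p 7.24e-09 by edgeR), and the groups lay far apart. RPA2, the middle subunit, rose instead, with 56.3, 58.5, 53.1 and 58.5 CPM in knockdown libraries and 45.95, 46.45, 46.86 and 45.28 CPM in controls (log2 change 0.295, adjusted p 1.38e-04 by edgeR). RPA1 over RPA2 was therefore 2.83 ± 0.187 in knockdown libraries and 5.01 ± 0.211 in controls (SD, n = 4 each). RNASEH2A, which removes RNA from DNA, rose (76.8 ± 6.21 CPM in knockdown libraries and 61.9 ± 2.28 CPM in controls), and POLD2 of polymerase delta fell (263.5 ± 11.8 CPM in knockdown libraries and 302.9 ± 9.39 CPM in controls; SD, n = 4 each). Without knockdown replicate 1, 13 of the 40 were lower, and with GC-corrected offsets 11. Lower calls over all genes also rose without that library, to 2555 from 1853. The number over all genes with GC-corrected offsets is not given here.

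Of 30 regulators between the retinoblastoma brake and E2F, 7 rose and 4 fell, or 36.7% called, beside 30.7% of all tested genes. E2F3, another activating E2F, had 39.7, 38.2, 36.7 and 37.1 CPM in knockdown libraries and 30.3, 30.3, 30.2 and 29.2 CPM in controls, so that all 3 activating E2F genes were higher in every knockdown library than in any control (log2 change of E2F3 0.338, SE 0.0516, adjusted p 7.49e-05 by edgeR). Rises were not limited to the activators. RBL1 (log2 change 0.214, adjusted p 0.00593 by edgeR), E2F4 (0.131, adjusted p 0.0386) and E2F5 (0.923, adjusted p 0.0212) were called higher too, and E2F6 was not called. With a library left out, E2F4 kept its call in 2 of 8 fits and E2F5 in 5 of 8. E2F5 had at most 34 counts in a library. Of the cyclins D that start the pathway, CCND2 fell (379.3 ± 17.8 CPM in knockdown libraries and 464.4 ± 3.62 CPM in controls, log2 change -0.292, adjusted p 6.01e-06 by edgeR) and CCND1 rose (340.1 ± 4.48 CPM in knockdown libraries and 301.9 ± 5.83 CPM in controls, log2 change 0.172, adjusted p 5.29e-04), while CCND3 was not called (42.9 ± 2.79 CPM in knockdown libraries and 41.2 ± 0.46 CPM in controls, log2 change 0.06, adjusted p 0.433). Of their kinases, CDK4 was not called (243.8 to 256.9 CPM in knockdown libraries and 239.2 to 258.2 CPM in controls, log2 change 0.012, 95% interval -0.06 to 0.09) and CDK6 fell (347.7 ± 27.5 CPM in knockdown libraries and 420.1 ± 4.13 CPM in controls; SD, n = 4 each; log2 change -0.273, adjusted p 1.33e-04 by edgeR).

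Of 27 mitosis genes, 12 fell and none rose, with a median log2 change of -0.098. The share called was 44.4%, beside 30.7% of all tested genes, of which 15.6% fell and 15.0% rose. It was 10.5% for the 19 other S-phase repair genes and 23.1% for the 13 tested p53 targets given below. No mitosis gene was called higher by edgeR, DESeq2 or limma on log2(FPKM + 1), and none had a rise with an unadjusted p under 0.05 (0 of 27). MKI67, the Ki-67 antigen of dividing cells, had 893.0, 820.4, 903.9 and 862.1 CPM in knockdown libraries and 999.7, 1091, 1007 and 1013 CPM in controls (log2 change -0.241, SE 0.0374, adjusted p 8.65e-05 by edgeR). PLK1 and AURKA, mitotic kinases, and KIF20A, a kinesin of cytokinesis, had log2 changes of -0.199, -0.207 and -0.184, all called lower. Of 19 other S-phase repair genes, FANCI (0.127) and FANCA (0.141), both of the interstrand crosslink pathway, were higher (adjusted p 0.0175 and 0.0197 by edgeR). FANCI lost its call without control replicate 1, and FANCA without knockdown replicate 3 or 4 or control replicate 3 or 4. None of the 19 was called lower by edgeR, DESeq2 or limma on log2(FPKM + 1) over all libraries (0 genes), 1 had a fall with an unadjusted p under 0.05, and 5 were called lower without knockdown replicate 1. Over all genes, 2555 were lower without that library, beside 1853 with it. Of 13 tested p53 targets, not all of them genes of cell cycle arrest, XPC (0.236) and BTG2 (0.335) were higher and GADD45A (-0.252) was lower. CDKN1A, the p21 inhibitor, stood at 24.3, 26.6, 25.7 and 24.1 CPM in knockdown libraries and 24.5, 25.7, 23.8 and 23.0 CPM in controls. It was not called (0.055, adjusted p 0.528 by edgeR).

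Knockdown replicate 1 deviated from the other knockdown libraries in step with GC content. Across the 46 genes, the difference in log2 CPM between replicate 1 and the mean of knockdown replicates 2 to 4 had a Pearson correlation of -0.847 with the GC content of the longest coding transcript. Over 11584 tested genes it was -0.673. These are correlations across genes of the same libraries, which are not independent replicates. Of the 18 genes with a GC content of at least 50%, replicate 1 was the lower in 15, with a median difference of -0.195. Of the 28 genes under 50%, it was the lower in 3, with a median difference of 0.08. CDT1, at 64.9% GC, had 44.0 CPM in replicate 1 and 57.0, 57.2 and 59.8 CPM in the other knockdown libraries. The log2 change between knockdown and control had little relation to GC content, at -0.12 across the 46.

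**Figure D5:**
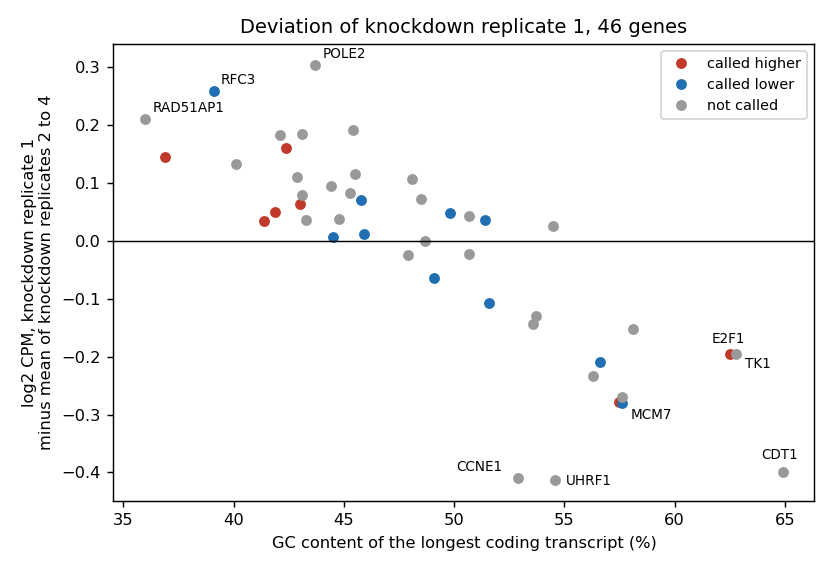
Difference in log2 CPM between knockdown replicate 1 and the mean of knockdown replicates 2 to 4 (vertical) against the GC content of the longest coding transcript in percent (horizontal) for the 46 genes; red marks genes called higher, blue genes called lower and grey genes not called. The points slope down from RAD51AP1 (0.21) at 36.0% GC to CDT1 (-0.399) at 64.9% GC. The highest point is POLE2 (0.304) at 43.7% GC and the lowest is UHRF1 (-0.413) at 54.6% GC.

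All 17 called genes were also called, in the same direction, without knockdown replicate 1, with GC-corrected offsets and with both together. Without that library, 6 more genes were called, of which CDC6, MCM6, PCNA, DTL and CLSPN were lower and UHRF1 was higher, so that 8 were higher and 15 lower. Over all genes, 2526 were then higher and 2555 lower. With GC-corrected offsets the added calls were CDC6, TK1 and CLSPN, and with both together CDC6, TK1 and DTL. All of these were lower, and MCM6, PCNA and UHRF1 were called in neither of the GC-corrected fits. Of the 17 calls, 13 held under all 19 alternatives, and the other 4 were MCM7, GINS1, RFC3 and BRCA1, as described with each gene. For the 28 genes other than CCNE1 that were not called, the 95% intervals of the log2 change lay between -0.25 and 0.19.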

How the data were processed

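Raw counts per gene and FPKM were read from the authors' deposited tables. The deposited counts are per gene and do not separate isoforms, reads were filtered with fastp per the series' design text, and the build is hg38 per the submitters' processing notes. Not given in the sources used here are the aligner, the counting tool, its use of strand and the annotation. The FPKM that the authors deposited can be rebuilt from the counts with 1 fixed length for each gene, in 110558 of 110558 values above 0 (tolerance 1e-06), so they hold no independent measurement.

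Counts over 15852 genes were filtered with filterByExpr (11841 genes left), scaled by TMM and tested by edgeR (quasi-likelihood F-test, robust) in all 8 libraries, with Benjamini-Hochberg adjustment over all tested genes at 0.05. The 46 genes, the related lists, the tests and the sequence words were chosen with earlier results of these data known. Values per library are given for BOLA3, for called members and for E2F and cyclin E genes, with the 10 smallest p, and up to 4 genes of each related list by smallest p are named; the values per library of other members, further genes (such as CDKN1A, RPA3 and overlapping genes) and the partner ratios were chosen after their values were seen.

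Alternatives were RLE and upper quartile factors, no filter, at least 1 CPM in 4 libraries, DESeq2, a block for the replicate number, limma on log2(FPKM + 1) or log2(FPKM + 0.1) with at least 0.5 FPKM in 4 libraries, limma on log2(FPKM + 1) with no minimum, and each of the 8 libraries left out. GC-corrected offsets, with all libraries and without knockdown replicate 1, were added after seeing the data. Gene spans and start regions are from RefSeq GRCh38.p14, and GC content, exon overlap and shared sequence (75-base windows every 25 bases) from GENCODE v29, where all 46 genes were found. Of the 46, 41 had a start region in the RefSeq table used. The fits were tested on simulated counts with planted changes of 1.25- to 3-fold. edgeR recovered 74% of those at 1.25-fold and 98% at 3-fold, with 8 false calls. Smaller changes, such as those of GINS1 and RRM1, were not simulated. Software was Python 3.11.15, DESeq2 1.42.0, limma 3.58.1, edgeR 4.0.16 and R 4.3.3. 1 leukocyte marker is not reported here and is left out of that list's sum.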

Additional observations from a re-analysis of the deposited data

Results flagged for a closer look

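In each group of 4 libraries, the highest and the lowest value of every gene of the 46 and of BOLA3 were set against the other 3 by the gap to the nearest value over the range of the group, with Dixon's 95% critical value as the limit. Of 94 gene and group combinations, 6 passed, where about 4.7 (1 in 20) are flagged by chance, and 4 of the 6 were knockdown replicate 1.

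Knockdown replicate 1 was the highest of its group for RFC3, at 148.8 CPM beside 122.2 to 126.3 CPM in the other knockdown libraries, and for EXO1, at 75.26 CPM beside 66.68 to 67.86 CPM. It was the lowest for CHAF1A, at 68.48 CPM beside 81.14 to 83.53 CPM, and for MCM2, at 249.7 CPM beside 277.4 to 278.0 CPM. RFC3 and EXO1 have transcripts of 39.1% and 42.4% GC, and CHAF1A and MCM2 of 57.6% and 58.1% GC. The log2 change without this library was -0.21 for RFC3 and 0.148 for EXO1, which were both still called, and 0.047 for CHAF1A and 0.028 for MCM2, which were not.

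Outside that library, knockdown replicate 3 was the highest of its group for ORC1, at 55.01 CPM beside 52.15 to 52.31 CPM in the other knockdown libraries. Control replicate 4 was the lowest for MCM10, at 111.2 CPM beside 117.1 to 117.8 CPM in the other controls. Neither gene was called.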

How the results depend on the processing

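The counts of genes called among the 46 lay between 5 and 8 higher and between 8 and 15 lower over the 19 alternatives (7 and 10 over all libraries). The fewest lower, 8, were in limma with no minimum. No called gene changed direction, and the log2 change of BOLA3 lay between -1.71 and -1.56. Same-numbered libraries did not deviate together (correlations 0.005, 0, 0.088 and -0.044), so the numbers were not taken as pairs. With the replicate number as a block, all 17 calls remained, and the median log2 change of the 46 was -0.035.

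The median log2 change of the 46 was -0.031, -0.016 in each of the 3 limma fits, and -0.042 to -0.022 with a library left out (lowest without knockdown replicate 2). The median over all tested genes was 0.001. It was 0.018 in limma on log2(FPKM + 1), 0.02 on log2(FPKM + 0.1) and 0.002 on log2(FPKM + 1) with no minimum. With a minimum, it thus moved in the same direction as that of the 46. Genes lower among the mitosis genes numbered 12, beside 17 without knockdown replicate 1 and 7 in limma with no minimum. Over all genes, lower calls numbered 1853, beside 2555 without knockdown replicate 1 and 1326 in limma with no minimum. With GC-corrected offsets 1 mitosis gene was higher, also without knockdown replicate 1. Among other replication genes 6 were lower, 6 to 13 with a library left out (13 without knockdown replicate 1), 11 with GC-corrected offsets and 12 with these and without that library. Among other S-phase repair genes 0 were lower, 0 to 5 with a library left out (5 without knockdown replicate 1), and 1 with GC-corrected offsets, with or without that library; 2 were higher, 1 to 2 with a library left out (1 without knockdown replicate 3 or 4 or control replicate 1, 3 or 4), and 4 with GC-corrected offsets. Among p53 targets 1 was lower, and 1 to 2 with a library left out (2 without knockdown replicate 1 or control replicate 4). The causes were not tested.

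All changes of sign were in genes that were not called. In limma with pseudocounts of 1 (with or without a minimum) and 0.1, the log2 change was 0.009 for MCM2, 0.012 for MCM10, 0.007 (0.008 with 0.1) for GINS4, 0.009 (0.01 with 0.1) for POLA1, 0.007 for FEN1, 0.001 for CHAF1A and 0.013 for SLBP. With GC-corrected offsets and without knockdown replicate 1 it was -0.008 for MCM4, 0.011 for MCM10 and 0.01 for CHAF1A. With a library left out, the ranges were -0.013 to 0.073 for E2F7, -0.075 to 0.063 for CDT1, -0.023 to 0.028 for MCM2, -0.007 to 0.02 for MCM4, -0.03 to 0.02 for FEN1, -0.082 to 0.006 for LIG1, -0.069 to 0.047 for CHAF1A, -0.001 to 0.088 for RAD51AP1, -0.028 to 0.007 for MCM10, -0.024 to 0.048 for RFC2, -0.031 to 0.107 for UHRF1, -0.023 to 0.028 for SLBP, -0.036 to 0.011 for POLA1 and -0.151 to 0.004 for POLE2.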

Other observations

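Genes around the E2F pathway went both ways in the knockdown. Of the 30 regulators, MYBL2, a transcription factor of late cell cycle genes, was lower (165.7 ± 14.1 CPM in knockdown libraries and 187.3 ± 4.14 CPM in controls, log2 change -0.176, adjusted p 0.0112 by edgeR), a call that was lost in limma with no minimum. CCNA2, or cyclin A2, was lower too (134.5 ± 6.76 CPM in knockdown libraries and 151.4 ± 4.38 CPM in controls; SD, n = 4 each; log2 change -0.171, adjusted p 0.0045 by edgeR). SKP2, the F-box protein that sends the inhibitor p27 to degradation, had 160.7, 142.6, 148.5 and 143.9 CPM in knockdown libraries and 128.7, 129.7, 123.1 and 130.2 CPM in controls (log2 change 0.219, adjusted p 7.64e-04 by edgeR). CDKN1B, which encodes p27 itself, had 45.6, 48.6, 44.8 and 45.9 CPM in knockdown libraries and 39.1, 36.4, 39.9 and 38.9 CPM in controls (log2 change 0.261, adjusted p 7.74e-04 by edgeR). Both groups of libraries were apart for both genes. RPA3, the small subunit of the single-strand binding protein, stood at 55.5 ± 4.36 CPM in knockdown libraries and 47.0 ± 3.27 CPM in controls (SD, n = 4 each; log2 change 0.238, adjusted p 0.00654 by edgeR), so that RPA2 and RPA3 were higher where RPA1 was lower. These genes were chosen after their values were seen.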
